A study of Mus musculus with 12 samples.

Results

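The apelin and adrenomedullin systems were followed in glomerular endothelial cells (GEC) through 7 genes chosen by name: *Apln*, *Aplnr*, *Esm1*, *Adm*, *Calcrl*, *Ramp2* and *Ramp3*. All 7 were listed in the bright table of 17521 genes and 6 of them in the dim table of 17811 genes, out of 19564 genes in either table. *Apln* had no row in the dim table, so its dim level is not known here. The genes were proposed because of how they differed between AS and WT, so values of that contrast are given as a description with no test. Tests are kept for bright over dim, a contrast that did not choose them but uses the same libraries.

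The libraries came from 4 month old C57BL/6 mice that carried the TekCre tdTomato reporter, in which Cre made from the *Tek* promoter switches on a red fluorescent protein (tdT). Cre driven by *Tek* is active in endothelial cells and is also known in the blood lineage. There were 3 wild type (WT) mice and 3 Alport syndrome (AS) mice labelled Col4a5 -/-, which lack the collagen IV chain of the glomerular basement membrane that *Col4a5* encodes, and all 6 carried the reporter. Isolated glomeruli were digested, and tdT-positive cells were sorted into a dim (dimtdT) and a bright (brighttdT) subpopulation, 1 library of each per mouse, giving 3 WT-dim, 3 WT-bright, 3 AS-dim and 3 AS-bright libraries.

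Apelin, the peptide encoded by *Apln*, binds the G protein-coupled receptor encoded by *Aplnr*. Endothelial tip cells at the front of growing vessels are known to express *Apln* and *Esm1*, which encodes the secreted proteoglycan endocan. Adrenomedullin, encoded by *Adm*, is a vasodilator peptide that keeps the endothelial barrier tight. Its receptor is the calcitonin receptor-like receptor (*Calcrl*) paired with an accessory protein that carries it to the cell surface, and the accessory proteins encoded by *Ramp2* and *Ramp3* give adrenomedullin receptors, whereas that of *Ramp1* gives a receptor for calcitonin gene-related peptide.

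In GRCm38 with Gencode M21, all 7 genes are protein-coding. *Apln* lies at chrX:48025146-48034853 on the minus strand, and its receptor gene *Aplnr* at chr2:85136225-85139923 on the plus strand. *Esm1* lies at chr13:113209659-113218098 (plus), *Adm* at chr7:110627661-110629820 (plus) and *Calcrl* at chr2:84330626-84425411 (minus). *Ramp2* lies at chr11:101246028-101259546 and *Ramp3* at chr11:6658521-6677475, both plus. *Vps25*, on the same strand, shares 33.4% of the exon bases of *Ramp2*, and reads in that stretch cannot be assigned to either gene, so that the level of *Ramp2* is uncertain. A pseudogene on the other strand shares 7.32% of the exon bases of *Ramp3*. *Esm1* and *Adm* are each crossed by a gene on the other strand that shares 0 exon bases, and *Apln*, *Aplnr* and *Calcrl* overlap no annotated gene.

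The 250 bases before the start site are shown for the 3 members that encode secreted products, since one of these was higher and the others lower in AS-bright than in WT-bright GEC. They were taken from RefSeq on GRCm38.p6, which held 5 of the 7 members (*Apln*, *Esm1*, *Adm*, *Calcrl* and *Ramp3*), at chrX:48034854-48035103 (minus) for *Apln*, chr13:113209409-113209658 (plus) for *Esm1* and chr7:110627407-110627656 (plus) for *Adm*, 5′ to 3′. Capitals mark the letters ACGTG or GCGTG, the core of the hypoxia response element, on either strand, so that CACGC is GCGTG of the other strand.
Apln: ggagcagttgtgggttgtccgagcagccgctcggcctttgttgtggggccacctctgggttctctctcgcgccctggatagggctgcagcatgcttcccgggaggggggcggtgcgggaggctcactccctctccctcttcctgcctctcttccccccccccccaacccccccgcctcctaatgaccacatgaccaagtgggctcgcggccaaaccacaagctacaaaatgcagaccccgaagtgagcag
Esm1: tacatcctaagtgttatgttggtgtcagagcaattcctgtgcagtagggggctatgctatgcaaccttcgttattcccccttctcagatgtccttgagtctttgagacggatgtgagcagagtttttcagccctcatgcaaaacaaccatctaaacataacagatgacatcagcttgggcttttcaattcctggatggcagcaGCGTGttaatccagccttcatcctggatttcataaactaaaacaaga
Adm: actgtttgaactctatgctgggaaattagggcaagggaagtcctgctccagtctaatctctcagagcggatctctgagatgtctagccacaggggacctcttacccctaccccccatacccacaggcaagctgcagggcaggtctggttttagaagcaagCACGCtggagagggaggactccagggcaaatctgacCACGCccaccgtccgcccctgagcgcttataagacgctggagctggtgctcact
*Esm1* held GCGTG once, 47 bases before the start site, and *Adm* held it at 90 and 54 bases before it on the other strand. *Ramp3* held it at 219 and 65 bases before its start site. No match was found in the window of *Apln* or of *Calcrl*. Of 32851 RefSeq promoters searched in the same way, 16.6% held ACGTG, 28.2% held GCGTG and 38.6% held either, so a match is common and is given only as a description.

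Counts on genes per library were 11440169 to 13923267 in the dim and 13674045 to 15074909 in the bright libraries. *Col4a5*, the targeted gene, had 771, 439 and 877 counts in WT-dim and 51, 24 and 17 in AS-dim libraries. In bright libraries it was low in both genotypes, at 158, 69 and 78 counts in WT against 43, 104 and 55 in AS. These overlapped, so that *Col4a5* does not check the labels there. In the dim sort the summed tubule markers were also lower in AS, as given below. Their part in the *Col4a5* difference was not tested. *Tek* reached 192 ± 65.7 CPM (counts per M, SI prefix mega, of library counts scaled by TMM; SD, n = 3) in WT-bright and 252 ± 6.998 in AS-bright, against 16.1 ± 4.94 in WT-dim and 2.65 ± 0.372 in AS-dim libraries. The summed level of 10 endothelial markers was 10776 to 15931 CPM in WT-bright and 15707 to 18310 in AS-bright, but 725 to 1360 in WT-dim and 228 to 315 in AS-dim. Leukocyte markers went the other way, at 3865 to 6249 CPM in WT-dim and 8046 to 10221 in AS-dim over 10 genes, and at 35.5 to 46.2 in WT-bright and 48.1 to 76.4 in AS-bright over the 6 of them listed there. The dim libraries, though labelled GEC, thus held more leukocyte than endothelial marker RNA, and they are called the dim sort here. Proximal tubule markers (10 genes) summed to 7623 CPM in WT-dim replicate 1 and 3074 in WT-bright replicate 1, which came from the same mouse, against 1578 to 1683 and 445 to 669 in the other WT-dim and WT-bright libraries. In AS-dim they summed to 15.8 to 446 CPM, below every WT-dim library, and in AS-bright to 26.4 to 652. Podocyte markers (6 genes) summed to 976 to 1192 CPM in WT-bright and 1315 to 1501 in AS-bright, and to 636 to 1245 in WT-dim and 539 to 564 in AS-dim, neither pair overlapping. Markers of the loop and distal tubule (5 genes) summed to 358 to 509 CPM in WT-bright and 21.7 to 208 in AS-bright, and to 677 to 1654 in WT-dim and 40.4 to 250.5 in AS-dim, again without overlap. Mesangial and mural markers (6 genes) overlapped in bright, at 405 to 886 and 437 to 798 CPM, and not in dim, at 119 to 209 in WT and 59.3 to 106 in AS. Each marker of these lists that a table held was above 3 counts in at least 1 library of every group. In such bulk samples, fewer cells of a type and less RNA per cell cannot be told apart.

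*Apln* was listed for bright GEC only. The 3 WT-bright libraries held 43, 37 and 102 counts of it, and the 3 AS-bright libraries 332, 250 and 352. The lowest AS-bright library thus lay above the highest WT-bright library. The means were 3.99 ± 2.31 CPM (SD, n = 3) in WT-bright and 21.7 ± 4.95 in AS-bright GEC, a log2 fold change of AS over WT of 2.37 (standard error 0.42). WT-bright replicate 3 held more *Apln* than the other WT libraries, and without it the log2 fold change was 2.93.

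*Aplnr*, the apelin receptor, had 5, 19 and 44 counts in the WT-bright and 259, 455 and 420 in the AS-bright libraries, and again the groups did not overlap. Its means were 1.504 ± 1.29 CPM in WT-bright and 26.0 ± 6.58 in AS-bright (SD, n = 3), a log2 fold change of 4.05 (standard error 0.51), or 4.92 without WT-bright replicate 3. The WT-bright level rests on few counts, and the gene passed the filter on low counts through the AS-bright libraries. The WT-dim libraries held 1, 6 and 0 counts and the AS-dim libraries 6, 19 and 19, too few to pass the filter for AS over WT, and the groups overlapped when scaled to CPM.

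Ligand and receptor differed unequally, as their ratio within a library showed. Per kilobase of exon, WT-bright libraries held 5.04 ± 4.39 (SD, n = 3) *Apln* reads for each *Aplnr* read, with a range of 2.29 to 10.1, and 2.51 on average without replicate 1, which held 5 *Aplnr* counts. AS-bright libraries held 1.05 ± 0.433, with a range of 0.645 to 1.51, so that both transcripts were about equally abundant there.

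*Esm1* differed from *Apln*, with which it shares a place among tip cell genes. It had 1000, 1627 and 1448 counts in WT-bright and 485, 820 and 564 in AS-bright libraries, so that every AS library was lower. The means were 90.5 ± 24.7 and 42.7 ± 9.27 CPM (SD, n = 3), a log2 fold change of AS over WT of -1.14 (standard error 0.27). Among dim libraries *Esm1* was counted at 101, 80 and 9 in WT mice and at 18, 18 and 28 in AS mice, where WT replicate 3 fell below the AS libraries.

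*Adm*, the adrenomedullin gene, had 397, 637 and 590 counts in WT-bright and 207, 410 and 268 in AS-bright libraries. The means were 36.0 ± 9.64 and 20.2 ± 5.86 CPM (SD, n = 3), a log2 fold change of AS over WT of -0.89 (standard error 0.31), but the highest AS library lay above the lowest WT library. Dim libraries held 54, 97 and 80 counts of it in WT mice and 37, 31 and 11 in AS mice, which did not overlap.

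*Calcrl*, the receptor that *Ramp2* and *Ramp3* pair with, was counted at 7097, 9803 and 9339 in WT-bright and 4376, 6848 and 5810 in AS-bright libraries. Scaled to CPM the groups did not overlap, with means of 581 ± 116 and 391 ± 69.2 (SD, n = 3) and a log2 fold change of -0.63 (standard error 0.22). Dim libraries gave 637, 892 and 354 counts in WT mice and 303, 240 and 241 in AS mice, again without overlap.

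*Ramp2* and *Ramp3* parted from each other. *Ramp2* had 1209, 1177 and 1567 counts in WT-bright and 1292, 1000 and 1091 in AS-bright libraries, overlapping groups with a log2 fold change of -0.21 (standard error 0.22). *Ramp3* had 4374, 3053 and 6561 counts in WT-bright and 8036, 5267 and 9942 in AS-bright libraries, a log2 fold change of 0.76 (standard error 0.32), and here too the groups overlapped. For *Ramp2* the dim libraries held 106, 79 and 61 counts in WT against 15, 18 and 8 in AS libraries, whereas for *Ramp3* they held 1744, 2247 and 1969 in WT mice and 1545, 1566 and 1463 in AS mice.

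**Figure D1:**
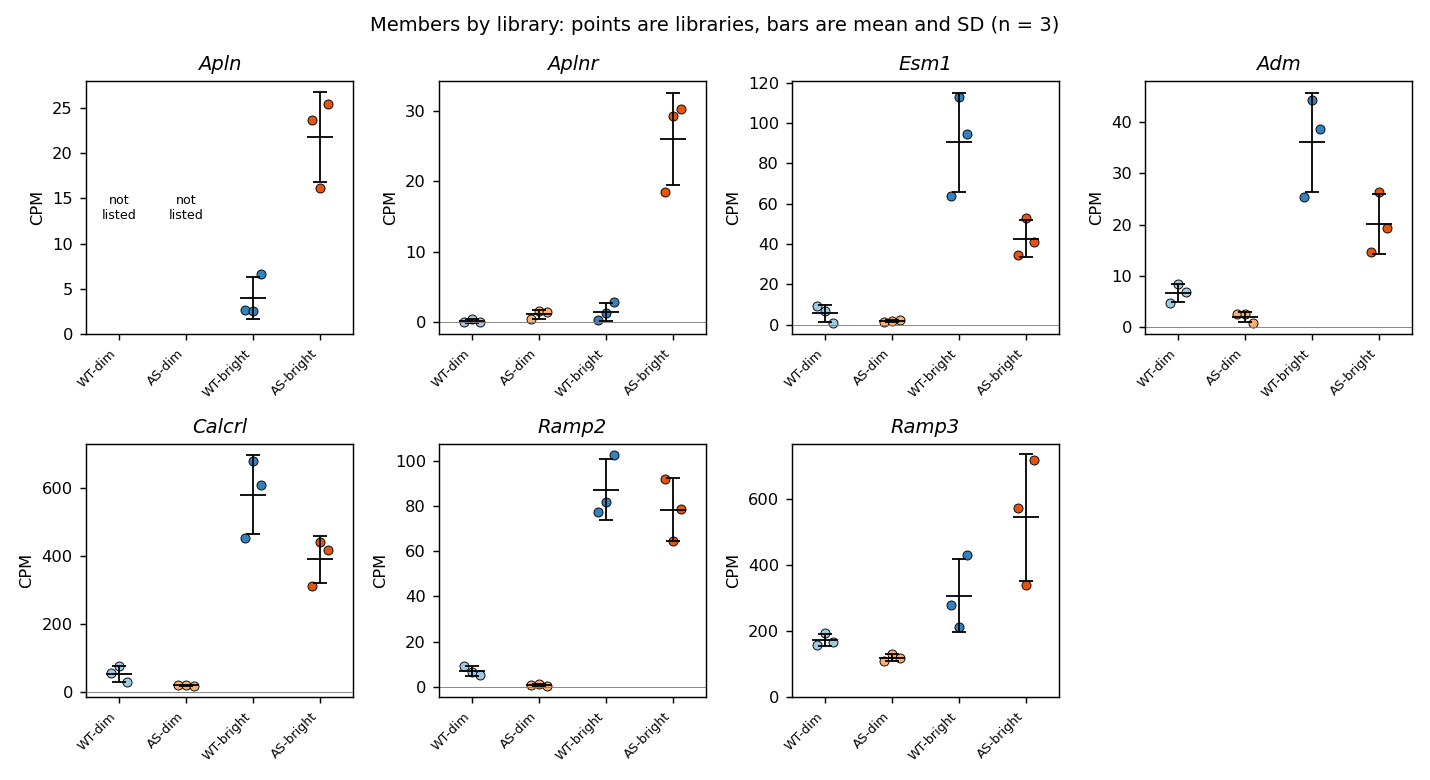
Level of each member in CPM (vertical axis, linear, own scale per gene) in the 12 libraries (points), with the mean and SD of 3 libraries per group. *Apln* and *Aplnr* stand highest in AS-bright GEC, *Esm1*, *Adm* and *Calcrl* highest in WT-bright GEC, and *Apln* is not listed in the dim table.

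In the bright GEC, *Apln* and *Aplnr* were higher in AS without overlap between the groups (13.6% of all genes tested) and *Esm1* and *Calcrl* lower without overlap (10.9%). These counts follow from the choice of the members and are not read further. The dim sort gave log2 fold changes of AS over WT of -2.75 for *Ramp2* (standard error 0.54), -1.75 for *Esm1* (0.80), -1.72 for *Adm* (0.52), -1.45 for *Calcrl* (0.35) and -0.55 for *Ramp3* (0.18). Of these 5, *Adm*, *Calcrl*, *Ramp2* and *Ramp3* were lower without overlap, as were 16.2% of all genes tested. The median log2 fold change over all genes was -0.03 in the bright and -0.02 in the dim comparison.

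**Figure D2:**
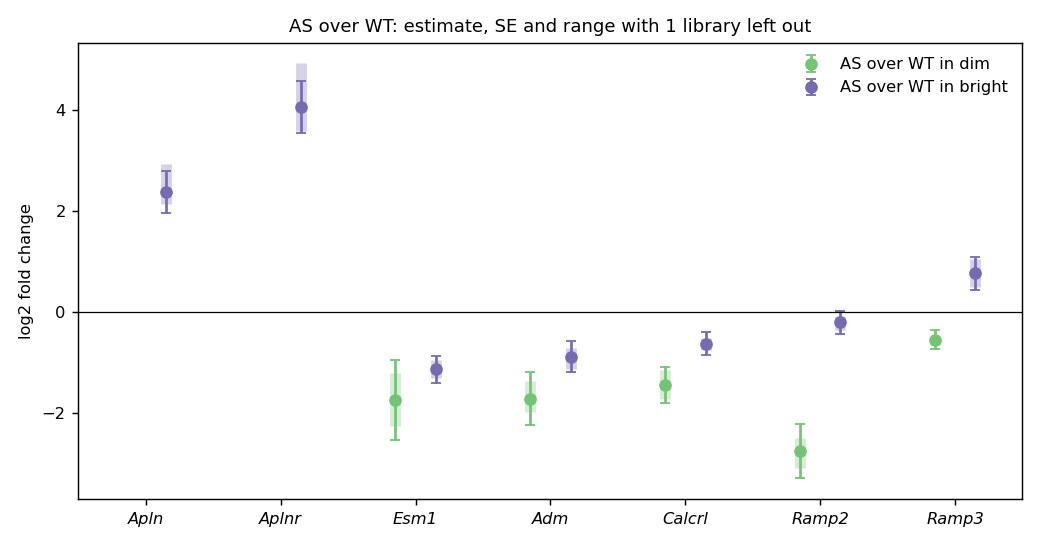
Log2 fold change of AS over WT (vertical axis) for each member in the dim sort and in bright GEC, with the standard error (thin bars) and the range of values when 1 library was left out (wide bands). *Apln* and *Aplnr* lie at 2.37 and 4.05 in bright GEC, and the 5 members fitted in the dim sort lie between -2.75 and -0.55.

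The endothelial markers moved along with these contrasts, so each member was also set against their sum in the same library. In the dim sort *Calcrl* came to 4.86 ± 0.758% of the endothelial marker sum in WT and 7.40 ± 1.79% in AS (SD, n = 3), *Adm* to 0.653 ± 0.270% and 0.764 ± 0.445%, and *Esm1* to 0.456 ± 0.328% and 0.590 ± 0.110%. None of these had a lower mean in AS on that scale. *Ramp2* was, at 0.501 to 0.792% in WT against 0.203 to 0.498% in AS. *Ramp3* came to 16.8 ± 5.50% in WT-dim and 42.9 ± 5.52% in AS-dim. *Aplnr*, on 0 to 19 counts, came to 0 to 0.0381% in WT-dim and 0.187 to 0.526% in AS-dim. Since the sum itself was lower in AS-dim, 10828 of the 14637 genes tested were higher in AS-dim without overlap on this scale and 1.52% of them lower. In the bright GEC, *Esm1* came to 0.594 to 0.708% in WT and 0.189 to 0.327% in AS, *Adm* to 0.236 to 0.277% and 0.0805 to 0.163%, *Calcrl* to 4.21 to 4.27% and 1.70 to 2.73%, and *Ramp2* to 0.512 to 0.718% and 0.398 to 0.503%, none of them overlapping. Over all 14396 genes tested, 15.6% were lower in AS-bright without overlap on this scale and 6.99% higher, against 10.9% and 13.6% in CPM, and *Adm* and *Ramp2* overlapped in CPM. *Ramp3* overlapped on this scale, at 1.33 to 2.99% in WT-bright and 2.10 to 4.57% in AS-bright. *Apln* and *Aplnr* stayed higher in AS-bright, at 0.0996 to 0.162% and 0.101 to 0.193%, against 0.0161 to 0.0465% and 0.00297 to 0.0201% in WT-bright. The part of cell composition in the AS over WT values was not tested.

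Bright over dim compared the level of the members per library between the sorted subpopulations. In WT mice *Esm1* rose most, by 4.12 on the log2 scale (standard error 0.60, adjusted p = 0.00111 by edgeR, Benjamini-Hochberg over all genes). *Ramp2* was higher by 3.69 (standard error 0.33, adjusted p = 7.63e-05 by edgeR), *Calcrl* by 3.49 (0.37, adjusted p = 0.000183) and *Adm* by 2.51 (0.40, adjusted p = 0.00171). *Ramp3* was higher by only 0.91 (standard error 0.29, adjusted p = 0.0483 by edgeR), a call that held in 6 of 14 alternative settings. It was lost when any library but WT-bright replicate 2 was left out (adjusted p = 0.0738 to 0.195 by edgeR), and was 0.61 without WT-bright replicate 3. *Aplnr*, with 0 to 6 counts in WT-dim, did not pass the filter, and *Esm1* passed it through the bright libraries, since only 2 of the 3 WT-dim libraries reached its cutoff. Without the filter *Esm1* was called as well (adjusted p = 0.00133 by edgeR). The 5 members given with a p are read one by one and not as a group, beside 25.3% of 14247 genes that were called, 13.8% as higher and 11.5% as lower, and a median of all genes of -0.04. They were higher in bright without overlap between the groups, as were 22.2% of all genes, where 41.9% did not overlap in either direction. Against the endothelial marker sum of its library, *Calcrl* came to 4.21 to 4.27% in WT-bright and 4.16 to 5.66% in WT-dim. *Ramp2* came to 0.512 to 0.718% and 0.501 to 0.792%, and *Esm1* to 0.594 to 0.708% and 0.106 to 0.755%. *Adm*, at 0.236 to 0.277% and 0.403 to 0.939%, and *Ramp3*, at 1.33 to 2.99% and 13.0 to 23.1%, were lower in bright. Shares of all genes on that scale were not taken here, and the part of the endothelial markers was not tested.

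Within a mouse, the bright to dim ratio of CPM of *Adm* in WT ran from 5.24 to 5.66 over the 3 mice, the narrowest range of the 6 genes. That of *Esm1* was 7.06, 16.3 and 124, that of *Calcrl* 7.94, 8.83 and 20.3 and that of *Ramp2* 8.13, 11.97 and 19.7. The ratio of *Ramp3* was 1.79, 1.09 and 2.56, above 1 in every mouse but close to it in the second. For *Tek*, the gene behind the sort, it was 6.82, 15.1 and 16.5.

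In AS mice 55.1% of 14052 genes were called between bright and dim, 28.6% as higher in bright and 26.5% as lower, and the median of all genes was 0.02. The AS-bright and AS-dim libraries used here also entered the contrasts that brought the members to attention. *Ramp2* was higher by 6.21 (standard error 0.32, adjusted p = 1.68e-07 by edgeR), *Esm1* by 4.70 (0.33, adjusted p = 1.37e-06) and *Calcrl* by 4.29 (0.21, adjusted p = 1.03e-07). *Ramp2* passed the filter through the bright libraries, with 2 of 3 AS-dim libraries at its cutoff, and was called without the filter as well (adjusted p = 3.43e-07 by edgeR). *Adm* was higher by 3.32 (standard error 0.42, adjusted p = 8.39e-05 by edgeR) and *Ramp3* by 2.20 (0.26, adjusted p = 5.32e-05). *Aplnr*, which also passed the filter through the AS-bright libraries, was at 4.51 (standard error 0.43), given as a description with no test. These 6 genes were higher without overlap, as were 31.9% of all genes (62.4% in either direction), and each of the 5 calls held in 14 of 14 alternative settings. Within a mouse, the ratio ran from 18.5 to 43.3 for *Aplnr*, from 42.9 to 123 for *Ramp2* and from 2.6 to 6.14 for *Ramp3*, while for *Tek* it ran from 84.4 to 105. Against the endothelial marker sum, *Calcrl* came to 1.70 to 2.73% in AS-bright and 6.12 to 9.45% in AS-dim. *Ramp2* came to 0.398 to 0.503% and 0.203 to 0.498%, and *Adm* to 0.0805 to 0.163% and 0.279 to 1.15%. *Esm1* came to 0.189 to 0.327% and 0.498 to 0.711%. *Ramp3* came to 2.10 to 4.57% and 37.2 to 48.2%, and *Aplnr* to 0.101 to 0.193% and 0.187 to 0.526%. Whether bright over dim differed between AS and WT was not tested. The part of the leukocyte markers, higher in the dim sort in both genotypes, and of the endothelial markers, higher in bright, was not tested.

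**Figure D3:**
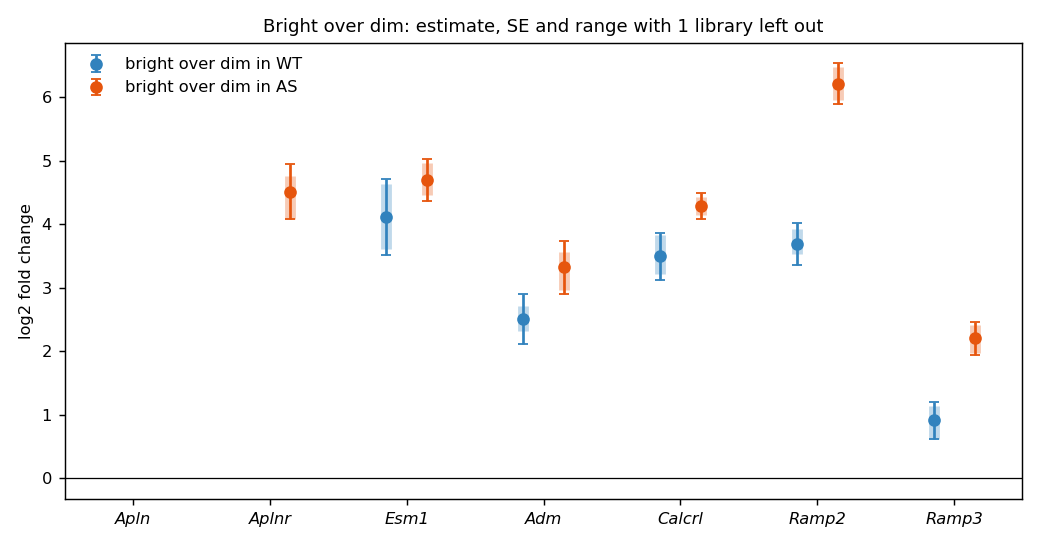
Log2 fold change of bright over dim (vertical axis) for each member in WT and AS mice, with the standard error (thin bars) and the range when 1 library was left out (wide bands). *Ramp3* has the lowest value in both genotypes, 0.91 in WT and 2.20 in AS, and *Ramp2* has the highest in AS, 6.21. *Apln*, not listed in the dim table, is not shown, nor is *Aplnr* in WT, which did not pass the filter.

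To compare levels between genes, reads were divided by gene length. The gene length behind the deposited RPKM (reads per kilobase of gene and per M library reads) matched the summed exons of all annotated transcripts of a gene, with 1 base added per exon, for 90.6% of 19530 genes, and was a median of 1.48 times the length of the merged exons. It was 1.92, 2.12 and 1.86 times that length for *Calcrl*, *Ramp2* and *Ramp3*, and 1.001 to 1.09 times for the others, so that the deposited RPKM understates *Calcrl*, *Ramp2* and *Ramp3* beside the others. Levels were therefore also computed per kilobase of merged exons, an alternative chosen after the data had been seen.

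On that scale *Ramp3* stood first in every group. In AS-bright GEC the order was *Ramp3* (394 ± 139 RPKM, SD, n = 3), *Calcrl* (80.0 ± 14.2), *Ramp2* (23.8 ± 4.19), *Esm1* (20.4 ± 4.42), *Adm* (12.5 ± 3.62), *Aplnr* (7.04 ± 1.78) and *Apln* (6.90 ± 1.57). The neighbours *Ramp2* and *Esm1*, *Esm1* and *Adm*, and *Aplnr* and *Apln* did not differ beyond 1 SD of each. *Esm1* was nonetheless above *Adm* in each of the 3 libraries. By the deposited RPKM, *Ramp3* was at 211, *Calcrl* at 41.6, *Esm1* at 20.4, *Adm* at 11.4, *Ramp2* at 11.2, *Apln* at 6.89 and *Aplnr* at 6.48, which places *Ramp2* after *Esm1* and *Adm*.

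In WT-bright GEC, per kilobase of merged exons, *Ramp3* (222 ± 80.3 RPKM, SD, n = 3) and *Calcrl* (119 ± 23.7) did not differ beyond 1 SD of each. *Ramp3* was nonetheless the higher in each of the 3 libraries, by a ratio of 1.10 to 2.49. *Esm1* (43.1 ± 11.8) followed, then *Ramp2* (26.4 ± 4.05) and *Adm* (22.3 ± 5.95), which did not differ beyond 1 SD of each. *Apln* (1.27 ± 0.735) and *Aplnr* (0.407 ± 0.348) came last, with group means that did not differ beyond 1 SD of each, although *Apln* was the higher in each of the 3 libraries.

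The dim sort set *Ramp3* further apart from the rest. It reached 125 ± 13.9 RPKM in WT-dim and 86.2 ± 7.62 in AS-dim (SD, n = 3), followed by *Calcrl* at 11.2 ± 4.82 and 4.15 ± 0.235. *Adm* (4.12 ± 1.09 and 1.25 ± 0.615) and *Esm1* (2.66 ± 2.05 and 0.797 ± 0.240) did not differ beyond 1 SD of each in either genotype. *Ramp2* was at 2.17 ± 0.661 in WT-dim and 0.323 ± 0.130 in AS-dim libraries. *Aplnr*, at 0.0548 ± 0.0748 in WT-dim and 0.318 ± 0.176 in AS-dim, came last in WT-dim but did not differ from *Ramp2* beyond 1 SD of each in AS-dim, where the deposited RPKM turned their order (0.293 for *Aplnr* and 0.153 for *Ramp2*).

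The reads of the accessory protein genes were set against each other within each library, so that library size does not enter. Per kilobase of merged exons there were 8.29 ± 1.93 *Ramp3* reads for each *Ramp2* read in WT-bright and 16.4 ± 4.79 in AS-bright libraries (SD, n = 3), with ranges of 6.20 to 10.02 and 12.6 to 21.8 that did not overlap. The ratio in the dim sort was 61.5 ± 19.7 in WT and 297 ± 123 in AS libraries, and these did not overlap either. The AS-dim value divides by 15, 18 and 8 *Ramp2* counts. *Ramp2* shares 33.4% of its exon bases with *Vps25*, so that ratios with *Ramp2* are uncertain. The dim sort held more leukocyte than endothelial marker RNA, and whether both genes were read in the same cells was not tested. For each *Calcrl* read there were 1.92 ± 0.727 *Ramp3* reads in WT-bright, 5.09 ± 2.06 in AS-bright, 12.8 ± 6.00 in WT-dim and 20.9 ± 2.58 in AS-dim libraries. *Ramp2* reads for each *Calcrl* read were 0.226 ± 0.0419 in WT-bright, 0.310 ± 0.114 in AS-bright and 0.211 ± 0.0691 in WT-dim libraries, but 0.0777 ± 0.0312 in AS-dim. The ratio of *Adm* to *Calcrl* was 0.185 ± 0.0144 in WT-bright and 0.154 ± 0.0230 in AS-bright, and 0.422 ± 0.228 and 0.298 ± 0.140 in WT-dim and AS-dim. AS-bright replicate 2 had the lowest *Ramp3* to *Calcrl* ratio of its group, 2.72, close to the highest of WT-bright, 2.49. These are values of the contrast that chose the members where AS is set against WT, and were not tested.

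**Figure D4:**
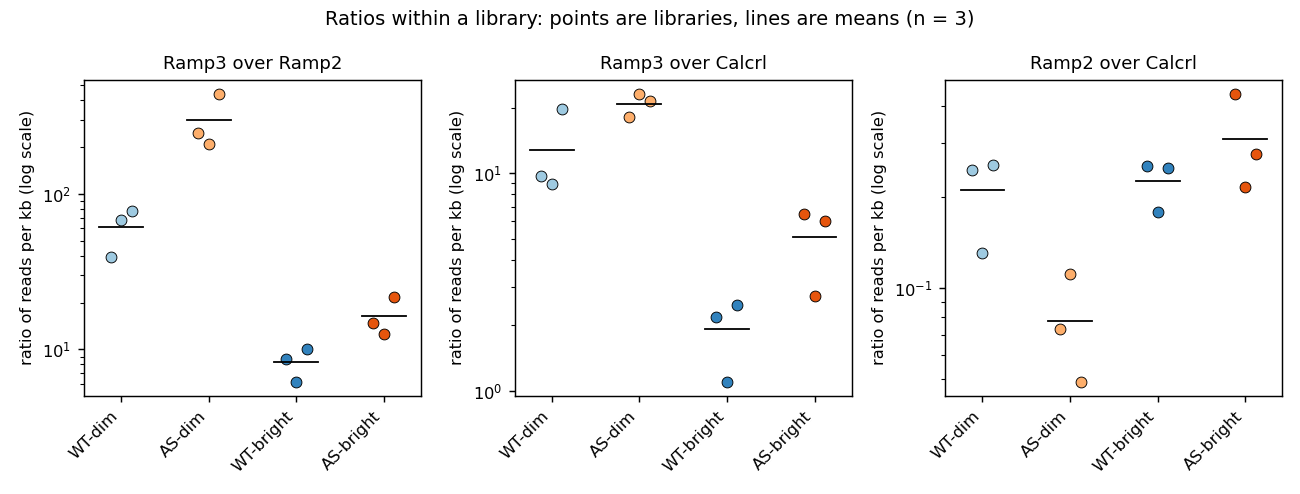
Ratio of reads per kilobase of merged exons between receptor genes (vertical axis, log scale) in each of the 12 libraries (points), with group means (lines, n = 3). *Ramp3* over *Ramp2* runs from a mean of 8.29 in WT-bright to 297 in AS-dim libraries, which held only 8 to 18 *Ramp2* counts.

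The other genes of the systems were taken as a list of 35 by their known roles, with earlier results of these data known, so that the calls below are no independent support for the members. The list runs from ligands and processing enzymes to G proteins and cyclic AMP enzymes. Of these 30 were in the dim and 28 in the bright table. *Ramp1*, the accessory protein of the calcitonin gene-related peptide receptor, was not listed in the bright table, and had 111, 58 and 41 counts in WT-dim and 187, 153 and 214 in AS-dim libraries (log2 fold change 1.22, standard error 0.45, adjusted p = 0.132 by edgeR's quasi-likelihood test). *Calca*, the gene of calcitonin and calcitonin gene-related peptide, had 302, 266 and 274 counts in WT-bright and 159, 96 and 111 in AS-bright libraries (-1.19, standard error 0.32, adjusted p = 0.0875 by edgeR). *Apela*, which encodes a second ligand of the apelin receptor, had 409, 17 and 14 counts in WT-bright and 15, 28 and 3 in AS-bright libraries. Its value of -3.24 on the log2 scale (standard error 1.27, adjusted p = 0.175 by edgeR) did not pass, and most of its WT-bright counts lay in replicate 1, the library with the most proximal tubule marker RNA of its group.

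For bright over dim, 7 of the 27 listed genes tested rose and 5 fell in WT, and 16 and 6 of 26 in AS, with medians of 0.50 and 0.97 against -0.04 and 0.02 over all genes. Of all genes tested, 13.8% were called higher and 11.5% lower in WT, and 28.6% and 26.5% in AS. The endothelial marker sum was higher and the leukocyte sum lower in bright than in dim libraries, and their part in these calls was not tested. Adenylyl cyclases make the cyclic AMP that adrenomedullin receptors signal through, and of the 4 listed, *Adcy4* at 3.40 (standard error 0.62, adjusted p = 0.00362 by edgeR) and *Adcy6* at 2.48 (0.52, adjusted p = 0.00745) were at the top in WT. *Adcy9* at 1.24 (adjusted p = 0.283 by edgeR) and *Adcy3* at -0.90 (adjusted p = 0.385) did not pass there. *Adcy4* reached 4.85 in AS (0.26, adjusted p = 2.21e-07 by edgeR), after *Gnai1*, an inhibitory G protein subunit, at 5.03 (0.25, adjusted p = 1.20e-07). *Pam*, the enzyme that amidates adrenomedullin, was also higher in bright, by 2.17 in WT (0.36, adjusted p = 0.00227 by edgeR) and 3.86 in AS (0.28, adjusted p = 1.77e-06). *Pde3b*, a phosphodiesterase that breaks down cyclic AMP, was lowest in both, at -4.11 in WT (0.43, adjusted p = 0.000181 by edgeR) and -3.92 in AS (0.30, adjusted p = 2.34e-06). The second lowest were *Arrb2*, a beta-arrestin, at -1.92 in WT (0.32, adjusted p = 0.00221 by edgeR) and *Prkar2b*, a regulatory subunit of protein kinase A, at -2.39 in AS (0.24, adjusted p = 1.66e-05).

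For AS over WT in bright GEC, 0 of the 27 listed genes tested passed edgeR's quasi-likelihood test, 10 had an unadjusted p under 0.05 and DESeq2 called 3, where edgeR called 0.452% of the 14396 genes tested. The list's median was 0.21, against -0.03 over all genes. The highest were *Adcy3*, an adenylyl cyclase, at 1.36 (standard error 0.65, adjusted p = 0.252 by edgeR) and *Ackr3*, a scavenger receptor for adrenomedullin and chemokines, at 1.13 (0.30, adjusted p = 0.0864). Among dim libraries 0 of 27 rose and 3 fell, with a median of 0.06, where 8.62% of 14637 genes were called, 2.21% as higher and 6.41% as lower, and the median of all genes was -0.02. These were *Ackr3* at -3.58 (0.62, adjusted p = 0.0217 by edgeR), *Gnai1* at -3.02 (0.40, adjusted p = 0.0172) and *Mme*, a peptidase on the cell surface, at -1.74 (0.40, adjusted p = 0.0374). *Ackr3* passed the filter through the WT-dim libraries, with 1 of 3 AS-dim libraries at its cutoff, and was called without the filter as well (adjusted p = 0.0267 by edgeR). The endothelial, podocyte, mesangial and tubule marker sums were lower and the leukocyte sum higher in AS-dim than in WT-dim, and their part in these calls was not tested. The highest were *Ramp1*, above, and the receptor kinase *Grk2* at 0.56 (0.18, adjusted p = 0.0951 by edgeR). Without AS-dim replicate 1 or replicate 3, 0 of the 29 listed genes then tested passed edgeR's test, and 5 and 4 had an unadjusted p under 0.05. Without WT-dim replicate 3, 6 passed.

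A list of 19 genes that are placed in endothelial tip cells beside *Apln* and *Esm1* gave the same comparisons. It too was taken with earlier results of these data known, so that its calls here and below are no independent support. For bright over dim, 13 of 18 tested rose and 2 fell in WT, with a median of 3.09, and 14 of 19 rose and 3 fell in AS, with a median of 5.71. The shares of all genes called were again 13.8% higher and 11.5% lower in WT and 28.6% and 26.5% in AS, with medians of -0.04 and 0.02. In both genotypes the endothelial marker sum was higher and the leukocyte sum lower in bright than in dim libraries. The part of these sums in the calls was not tested. *Flt4*, a VEGF receptor, was highest in both, at 4.64 in WT (standard error 0.57, adjusted p = 0.000385 by edgeR) and 6.75 in AS (0.38, adjusted p = 1.59e-07). It was followed by the laminin gene *Lama4* in WT, at 4.38 (0.58, adjusted p = 0.000613 by edgeR), and by the Notch ligand *Dll4* in AS, at 6.65 (0.26, adjusted p = 3.88e-08). *Flt4* passed the filter through the bright libraries, with 2 of 3 WT-dim and 0 of 3 AS-dim libraries at its cutoff. Over both lists the same held for 4 of the 27 genes called in WT and 7 of the 39 called in AS, each of which was called without the filter as well. *Cxcr4*, a chemokine receptor that leukocytes also carry, was lowest, at -3.67 in WT (0.48, adjusted p = 0.000577 by edgeR) and -4.25 in AS (0.23, adjusted p = 1.81e-07). The second lowest were *Trp53i11* at -2.35 in WT (0.44, adjusted p = 0.00461 by edgeR) and *Rgcc* at -1.21 in AS (0.25, adjusted p = 0.00243).

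For AS over WT in bright GEC, 3 tip cell genes of 19 rose and 0 fell, with a median of 0.88, where 0.188% of the 14396 genes tested were called higher and 0.264% lower and the median of all genes was -0.03. These were *Col4a2* at 1.59 (standard error 0.22, adjusted p = 0.0291 by edgeR) and *Col4a1* at 1.46 (0.22, adjusted p = 0.0345), the collagen IV chains found in all basement membranes, and *Cd34*, an endothelial surface sialomucin, at 1.18 (0.20, adjusted p = 0.0413). Without the filter *Cd34* was not called (adjusted p = 0.0501 by edgeR). *Col4a1* had 3052, 4351 and 3259 counts in WT-bright and 10402, 9383 and 9455 in AS-bright libraries. *Pgf*, a ligand of the VEGF family, had the highest value but did not pass, at 1.59 (0.56, adjusted p = 0.144 by edgeR). At the low end were *Pdgfb* at -0.28 (0.23, adjusted p = 0.519 by edgeR) and *Kcne3* at -0.37 (0.88, adjusted p = 0.845). Podocyte and leukocyte marker sums were higher and loop and distal tubule sums lower in AS-bright than in WT-bright libraries, without overlap, and their part was not tested. Without WT-bright replicate 3, AS-bright replicate 1 or AS-bright replicate 3, 0 of the 19 passed edgeR's test, and 10, 8 and 12 had an unadjusted p under 0.05. Without AS-bright replicate 2, 5 passed.

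Among dim libraries 0 of 16 tip cell genes tested rose and 2 fell, with a median of -0.89, where 2.21% of all genes were called higher and 6.41% lower and their median was -0.02. They were *Igfbp3*, an IGF binding protein, at -3.20 (standard error 0.55, adjusted p = 0.0215 by edgeR) and *Dll4* at -1.87 (0.42, adjusted p = 0.0352). *Igfbp3* passed the filter through the WT-dim libraries, with 2 of 3 AS-dim libraries at its cutoff, and was called without the filter as well (adjusted p = 0.0267 by edgeR). *Robo4*, a guidance receptor of endothelium, was at -2.39 but did not pass (0.62, adjusted p = 0.0510 by edgeR), and *Cxcr4* and *Rgcc* were highest at 0.67 (0.23, adjusted p = 0.109) and 0.28 (0.33, adjusted p = 0.641). The endothelial, podocyte, mesangial and tubule marker sums were lower and the leukocyte sum higher in AS-dim than in WT-dim libraries, and their part was not tested. Without AS-dim replicate 1, 2 or 3, 0 tip cell genes passed edgeR's test, and 5, 8 and 8 had an unadjusted p under 0.05. Without WT-dim replicate 3, 7 passed, and without WT-dim replicate 2, 1 did.

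**Figure D5:**
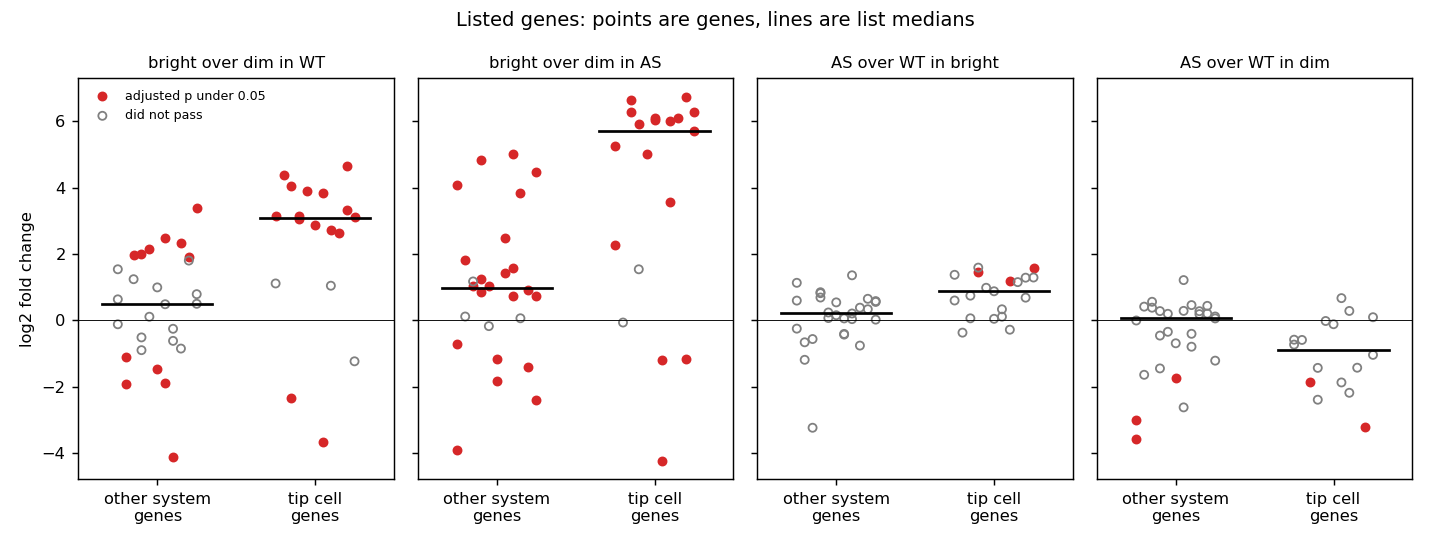
Log2 fold change (vertical axis) of the listed genes in the 4 comparisons, with genes past an adjusted p of 0.05 filled and list medians as lines. The tip cell median is 3.09 for bright over dim in WT and 5.71 in AS, and 0.88 and -0.89 for AS over WT in bright and dim.

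The genes whose log2(CPM + 1) ran most like that of each member were looked up by Pearson's r, over 12 libraries among 10471 genes. These are descriptions, since the 12 libraries share 4 groups and 6 mice. *Calcrl* ran closest to *Nrp1*, *Rdx* and *Pdgfd* (r = 0.99 for each) and *Ramp2* to *Exoc3l2*, *Gja4* and *Olfml2b* (0.995 to 0.996). *Esm1* ran closest to *Mkl2* (0.99), *Hey1* (0.99) and *Snai2* (0.98), and *Adm* to *Trove2*, *Tjp1* and *Klf12* (0.98). *Ramp3* had lower values, with *Rps6ka4* (0.97), *Psmd9* (0.97) and *Fam210b* (0.96). *Aplnr* was lowest, with *Mapre1* (0.93), *Trp53* (0.93) and *Eif4g1* (0.92). *Apln*, over the 6 bright libraries and 9940 genes, ran closest to *Kti12*, *Ybx3* and *Txnrd1* (0.99).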

How the data were processed

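RNA of the dim and bright sorts of tdT-positive glomerular cells of 3 WT and 3 AS mice was sequenced, 12 libraries in all. Per the labels, the authors checked reads with FastQC 0.11.5, trimmed them with cutadapt and Trimmomatic and aligned them with STAR 2.6.0c to GRCm38.p5, and the deposited counts are whole reads per gene, not normalized. The strand used in counting is not given in the sources used here. The deposited RPKM are the authors' own, made with their gene lengths. The tables also hold the authors' own log2 fold changes, p-values and FDR of AS over WT, which were not used.

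Rows were found by gene name. Each comparison was fitted on the counts of all genes, without the 92 ERCC spike-ins, with edgeR 4.0.16 in R 4.3.3 (TMM, filterByExpr, quasi-likelihood test, Benjamini-Hochberg adjustment, threshold 0.05), and bright over dim on the 15768 genes in both tables. Alternatives were RLE or plain library sizes, no filter, a likelihood ratio test, DESeq2 1.42.0, all 12 libraries in one fit, a replicate block and each library left out, and, chosen after the data were seen, edgeR's version 3 fit and merged exon lengths. The scripts were tested on simulated data. Replicate pairs differed by a chi-square of 29.5 to 104 per degree of freedom over 12 pairs, more than sampling noise. Depth was 11440169 to 15074909 counts per library, and 3 counts were used as the floor of detection.

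The dim and bright libraries of a mouse carry its number, which is where the pairing of bright over dim comes from, and their deviations from the group means correlated at 0.197 on average in WT and 0.213 in AS, against -0.0984 and -0.105 between mice. The members and lists were chosen with earlier results of these data known, so list calls for AS over WT are no independent support. Named are the members, from each list the 2 highest and 2 lowest in each comparison and some of the others, chosen among genes that passed, the 3 genes most like each member (mean CPM of at least 5), *Col4a5* and *Tek*. *Adcy3* and *Adcy9* for bright over dim in WT were named after their values were seen. Rows that share a gene name (*Itgam*) were summed in the marker sums.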

Additional observations from a re-analysis of the deposited data

Results flagged for a closer look

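Of 52 genes of the members and lists that both tables held, 7 moved in opposite directions for AS over WT, every AS-bright library being above every WT-bright library and every AS-dim library below every WT-dim library. Of all 15768 genes in both tables, 332 (2.11%) did so in either order of the subpopulations, 213 of them higher in bright and lower in dim. None of the members was among the 7, and the difference between the subpopulations was not tested. *Ackr3* was at 26.8 CPM in AS-bright and 11.6 in WT-bright, against 1.65 in AS-dim and 19.0 in WT-dim libraries. *Dll4* was at 317 CPM in AS-bright and 181 in WT-bright, against 3.18 in AS-dim and 11.6 in WT-dim libraries. *Unc5b* was at 95.9 CPM in AS-bright and 50.3 in WT-bright, against 1.44 in AS-dim and 5.29 in WT-dim libraries. *Mcam* was at 223 CPM in AS-bright and 108 in WT-bright, against 6.94 in AS-dim and 18.4 in WT-dim libraries. *Col4a1* was at 676 CPM in AS-bright and 237 in WT-bright, against 11.1 in AS-dim and 29.9 in WT-dim libraries. *Col4a2* was at 316 CPM in AS-bright and 101 in WT-bright, against 6.10 in AS-dim and 12.5 in WT-dim libraries. *Cd34* was at 588 CPM in AS-bright and 250 in WT-bright, against 9.15 in AS-dim and 41.0 in WT-dim libraries. The summed endothelial markers were at 15707 to 18310 CPM in AS-bright and 10776 to 15931 in WT-bright, overlapping groups, and at 228 to 315 in AS-dim and 725 to 1360 in WT-dim libraries. The podocyte sum was higher in AS-bright (1315 to 1501 CPM) than in WT-bright (976 to 1192) and lower in AS-dim (539 to 564) than in WT-dim (636 to 1245), the same pattern as these genes. The leukocyte sum was higher in AS in both, at 48.1 to 76.4 CPM against 35.5 to 46.2 in bright and 8046 to 10221 against 3865 to 6249 in dim. For all 7 genes, the part of these sums was not tested.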

How the results depend on the processing

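No member's log2 fold change changed sign in any setting tried. *Ramp3* for bright over dim in WT missed the threshold in 8 of 14 settings, with log2 fold changes of 0.61 to 1.13 over all settings, RLE normalization (adjusted p = 0.0595), no filter (0.0527) and edgeR's version 3 fit (0.0596) among the 8. The members' other calls for bright over dim held in every setting, the replicate block by mouse included. The number of genes called for AS over WT moved with the test and with single libraries. For AS over WT in bright GEC it was 65, against 39 without a filter, 827 by the likelihood ratio test, 1117 by DESeq2, 139 with all 12 libraries in one fit, 0 by edgeR's version 3 fit (2906 at an unadjusted p under 0.05) and 0 to 281 with 1 library left out. It was 0 by edgeR without WT-bright replicate 3, AS-bright replicate 1 or AS-bright replicate 3, with 2713, 1812 and 2336 genes at an unadjusted p under 0.05, and 274, 281 and 275 without WT-bright replicate 1, WT-bright replicate 2 or AS-bright replicate 2. For the dim sort it was 1262, against 1946, 2221 and 2105 by the likelihood ratio test, DESeq2 and all 12 libraries, 582 by the version 3 fit and 0 to 1823 with 1 library left out. It was 0 by edgeR without AS-dim replicate 1 (2974 at an unadjusted p under 0.05), 1 without AS-dim replicate 3, and 473, 785 and 815 without AS-dim replicate 2, WT-dim replicate 1 or WT-dim replicate 2. Of the tip cell genes, 7 were called for AS over WT in bright GEC by the likelihood ratio test, 8 by DESeq2, 0 by edgeR's version 3 fit (12 at an unadjusted p under 0.05) and 0 to 5 with 1 library left out, and in the dim sort 6, 8, 8 with all 12 libraries and 0 to 7. Without a filter 2 tip cell genes were called in bright GEC, and 2 with all 12 libraries in one fit. Of the other system genes, 3 were called in bright GEC by the likelihood ratio test and 3 by DESeq2, and 0 by edgeR with any 1 library left out (4 to 11 at an unadjusted p under 0.05), and in the dim sort 0 to 6. The causes were not tested.

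The replicate numbers of AS and WT mice mark no shared mouse, and same-numbered libraries correlated at -0.0370 in bright and -0.0496 in dim. With that number as a replicate block, 16 genes were called in bright GEC and 494 in the dim sort, 0 tip cell genes by edgeR in either (12 and 8 at an unadjusted p under 0.05) and 1 other system gene in the dim sort. By merged exon length the mean RPKM in AS-bright was 80.0 for *Calcrl*, 23.8 for *Ramp2* and 394 for *Ramp3*. *Aplnr* had 0 to 19 counts in the dim libraries, so that its level there is imprecise.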
